A study of Enchytraeus crypticus with 54 samples.

Results

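The most stable probes across the copper groups were described in *Enchytraeus crypticus*, a small soil-dwelling worm used in soil ecotoxicology. Each probe is a short DNA strand printed on a microarray, and the signal of a probe follows the amount of its transcript in the labelled sample. The list was chosen by its readout. A probe had to be flagged well above background on all 54 arrays, which held for 12827 of 43750 non-control probes. The value x is the log2 processed signal of a probe minus the median of these probes on the same array. The 150 probes with the highest mean x over the 6 control arrays were left out, and the 100 probes with the lowest SD of x over the 54 arrays were kept as members. The members were selected on x, so their small spread of x is a description and was not tested.

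The treated groups were adult worms in soil with CuNO3 (copper nitrate), Cu-NPs (nanoparticles of copper), Cu-NWires (nanowires of copper) or the copper exposure labelled Cu-Field. All were set at effect concentrations on reproduction, EC20 and EC50, at which reproduction is lowered by 20% and 50%, and worms were sampled after 3 and 7 days. The control groups were worms kept in Hygum soil of a control area for 3 and 7 days. Each of the 18 groups had 3 arrays, and each array held the RNA of whole bodies of 20 pooled worms, so that a signal is an average over all tissues and over the worms of a pool. In such extracts, fewer cells of a type and less RNA per cell cannot be told apart.

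Copper is an essential trace metal that becomes toxic in excess, and cells hold it on binding proteins and move it with dedicated transporters. Transcripts whose level varies little across conditions are of use as references, against which other transcripts are read. Whether a transcript looks steady depends on the level to which the arrays are scaled, because each array has a brightness of its own. The files pair each probe with a target sequence name and with no gene name, so the members are given by probe and target, and no role is given to any of them.

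The arrays differed in brightness before scaling. The median signal of the 12827 probes ranged from 96.3 to 390.0 units, a 4.05-fold range, and 38.2% to 66.5% of the non-control probes of an array were well above background. The arrays lay on 14 slides and were scanned on 2 days. All arrays of Cu-NWires EC50 and Cu-Field EC20 at 3 days were scanned on the second scan day. All arrays of CuNO3 EC50 and Cu-Field EC20 at 7 days were scanned on the first. Each control group had arrays on both scan days. In the 4 groups scanned on 1 day, treatment and scan day cannot be fully told apart.

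The members had SDs of x between 0.125 and 0.195, with a median of 0.180. All probes well above background had a median SD of 0.463. In fold terms, the highest array of a member exceeded its lowest array by 1.47-fold to 2.14-fold, with a median of 1.76-fold. Over the other probes the same measure had a median of 4.31-fold.

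**Figure D1:**
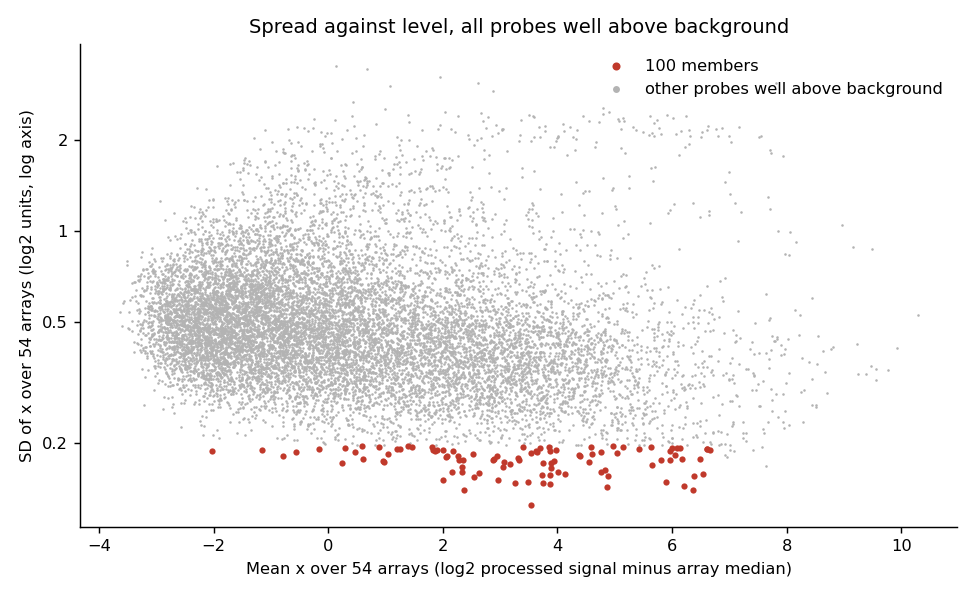
SD of x over the 54 arrays (log2 units, logarithmic axis) against the mean x (log2) for the 12827 probes well above background; red points are the 100 members and grey points the other probes. The members form the lower edge at SDs up to 0.195, mostly to the right of 0 on the level axis.

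The members were brighter than most probes, which the rule did not ask for. Their mean x had a median of 3.54, against -0.06 for the other probes. In processed signal, the median member had 2949 units over the arrays, against 242.2 units for the median of the other probes. When the 12827 probes were divided into 10 equal classes by mean x, the brightest class held 37 members, the next 26 and the one after it 19, while the dimmest 3 classes held 1 member in all. The spread of all probes also fell with level, since the median SD was 0.506 in the dimmest class and 0.373 in the brightest. Even so, the lowest SD in the dimmest class was 0.226, above the SD of every member.

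The 150 probes left out for their abundance included 6 whose SD would have placed them among the lowest 100. With those probes kept in, 94 of the members stayed in the list. The limit on abundance fell at a mean x over the controls of 6.94 for the brightest probe kept, against 6.96 for the dimmest probe left out.

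Targets of the array are either contigs assembled from several reads or single reads. Single reads were the targets of 63 members, against 55.8% of the other probes, and contigs were the targets of 37 members. The members on single reads had a median mean x of 3.73 and those on contigs 2.33. No member carried a non-uniformity outlier flag on any array, while 201 of the 12727 other probes did on at least 1 array. The flag was rare in both sets, and nothing is read from this difference.

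The most stable probe was CUST_17179_PI427420766_b, whose target is contig13816. Its SD of x was 0.125 around a mean x of 3.55, and its processed signal had a median of 2966 units. At 3 days, x was 3.57, 3.65 and 3.63 with CuNO3 EC20, 3.46, 3.50 and 3.52 with CuNO3 EC50, 3.73, 3.60 and 3.64 with Cu-NPs EC20, and 3.66, 3.56 and 3.34 with Cu-NPs EC50. It was 3.69, 3.50 and 3.47 with Cu-NWires EC20, 3.44, 3.60 and 3.48 with Cu-NWires EC50, 3.47, 3.46 and 3.48 with Cu-Field EC20, and 3.56, 3.43 and 3.56 with Cu-Field EC50, against 3.23, 3.56 and 3.36 in the control. The control at 3 days held the lowest array of this probe and its lowest group mean, 0.16 under the mean of the probe, and its arrays overlapped with those of most treatments.

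At 7 days, x of CUST_17179_PI427420766_b was 3.44, 3.65 and 3.69 with CuNO3 EC20, 3.66, 3.75 and 3.62 with CuNO3 EC50, 3.43, 3.41 and 3.60 with Cu-NPs EC20, and 3.57, 3.52 and 3.69 with Cu-NPs EC50. It was 3.60, 3.32 and 3.46 with Cu-NWires EC20, 3.50, 3.67 and 3.67 with Cu-NWires EC50, 3.34, 3.60 and 3.94 with Cu-Field EC20, and 3.67, 3.51 and 3.52 with Cu-Field EC50, against 3.52, 3.48 and 3.60 in the control. The widest group was Cu-Field EC20, which held the highest array of this probe, so that its replicates spanned most of the range found over all groups.

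The next members in order were close to it in spread and covered a wide range of levels. CUST_13226_PI427420766_b (contig17437) had an SD of 0.140 at a mean x of 6.36, and CUST_63583_PI427420766_b (GYUW2K402H2S2N) had the same rounded SD of 0.140 at a mean x of 2.37. CUST_5466_PI427420766_b (contig24085) had an SD of 0.143 at a mean x of 4.87. These 3 probes differed widely in level and little in spread.

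CUST_86156_PI427420766_b (GYUW2K402IDG2H) had an SD of 0.144 at a mean x of 6.21 and the smallest range of all members, with its highest array 1.47-fold over its lowest. CUST_22196_PI427420766_b (contig09239) had an SD of 0.146 at a mean x of 3.87. CUST_56545_PI427420766_b (GYUW2K401C5URF) and CUST_68221_PI427420766_b (GYUW2K402IE12I) both had an SD of 0.147, at mean x of 3.74 and 3.26. The order among these probes rests on differences in SD in the third decimal.

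CUST_60971_PI427420766_b (GYUW2K401AIQT1) had an SD of 0.149 at a mean x of 5.90, and CUST_52397_PI427420766_b (GYUW2K402F94H3) had an SD of 0.149 at a mean x of 3.48. Among these 10 probes, the control at 3 days was the group with the lowest mean for CUST_17179_PI427420766_b, CUST_63583_PI427420766_b and CUST_52397_PI427420766_b, and the group with the highest mean for CUST_60971_PI427420766_b.

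**Figure D2:**
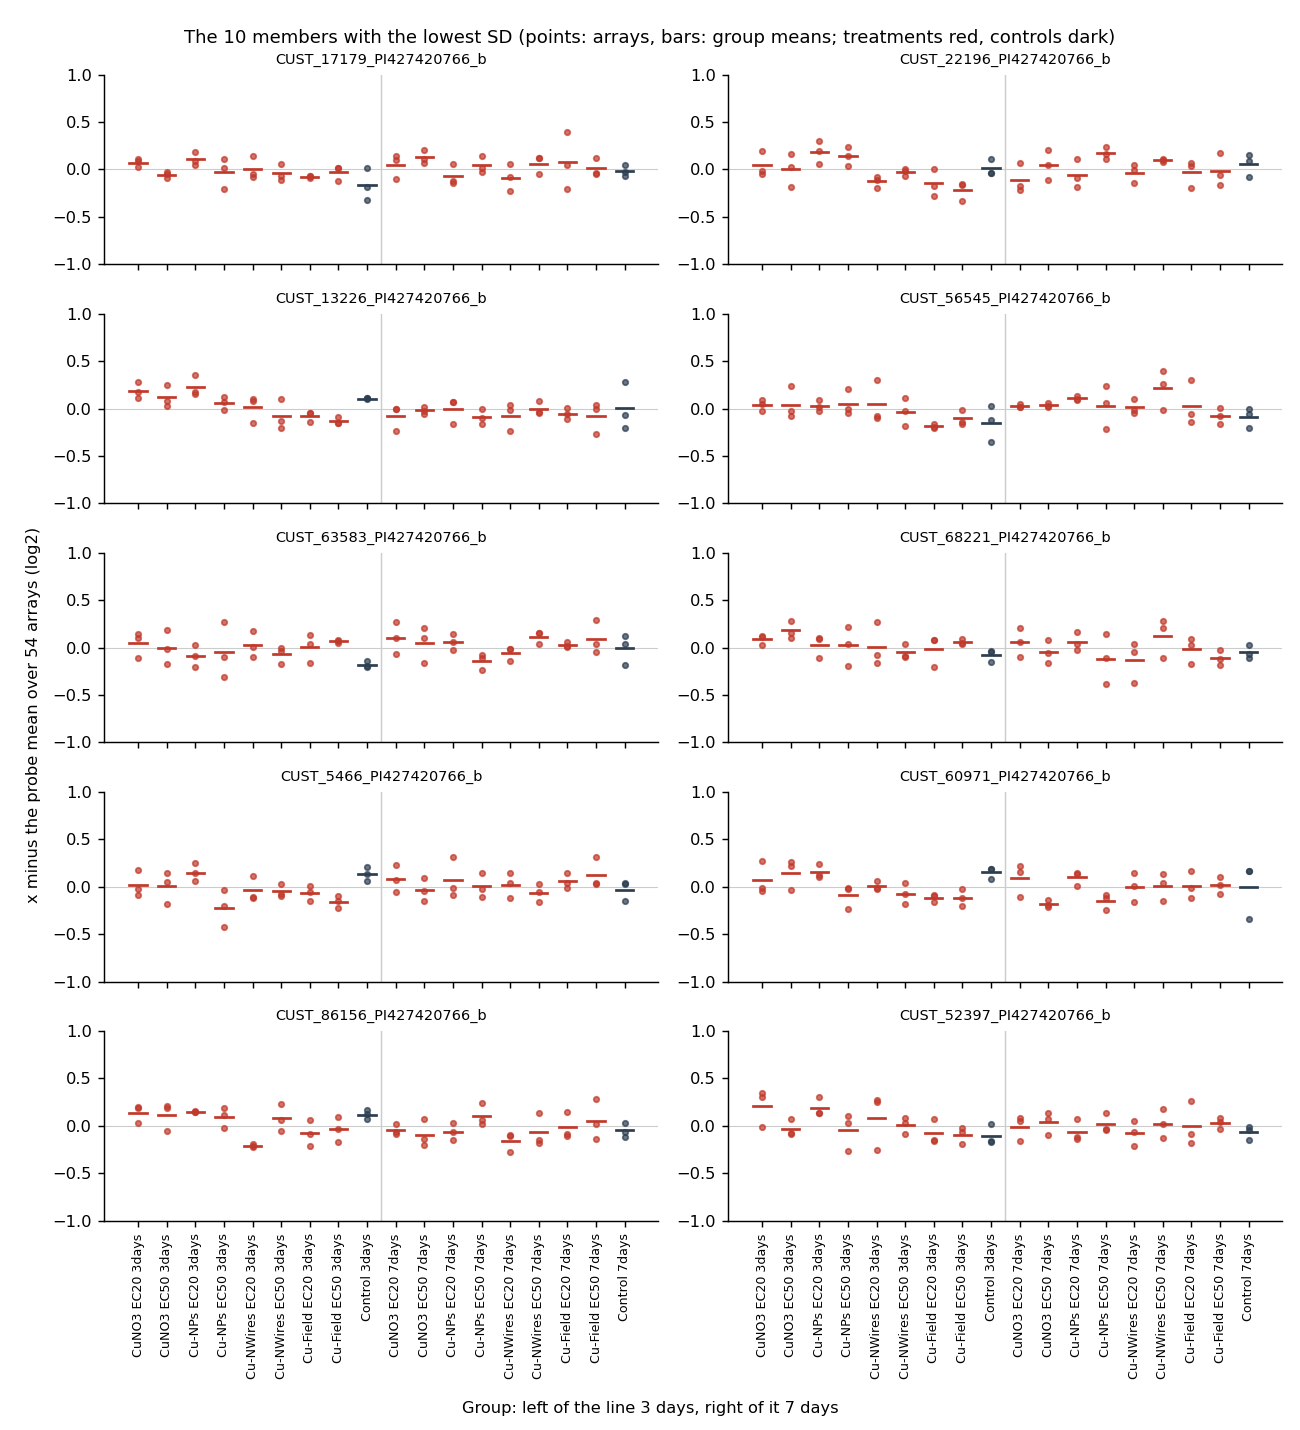
Deviation of x from the mean of the probe (log2) in the 18 groups for the 10 members with the lowest SD; points are arrays, bars are group means, treatments are red and controls dark. All points lie within 0.5 of the mean of their probe and replicates of a group overlap with those of most other groups.

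The list ended without a gap. The last 3 members were CUST_7533_PI427420766_b with an SD of 0.19498, CUST_80573_PI427420766_b with 0.194997 and CUST_23690_PI427420766_b with 0.195053. The first 3 probes outside were CUST_4173_PI427420766_b with 0.195226, CUST_10039_PI427420766_b with 0.196226 and CUST_43212_PI427420766_b with 0.196234. Membership at the limit was thus set by differences in the fourth decimal.

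The brightest member was CUST_67477_PI427420766_b (GYUW2K401B1ZGR), with a mean x of 6.67 and processed signals between 11605 and 40745 units. The dimmest was CUST_21917_PI427420766_b (contig09513), with a mean x of -2.02 and processed signals between 21.8 and 105.4 units. Its SD of 0.187 was close to the 0.190 of the brightest member, far apart as their signals were.

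The spread of the members was split into a part within groups and a part between groups. The pooled SD within groups had a median of 0.161 over the members, against 0.399 over all probes well above background. The SD of the 18 group means had a median of 0.119 over the members and of 0.327 over the other probes. If the groups did not differ, the SD of group means would be about the SD within groups divided by the root of 3. The members had a median ratio to this value of 1.28, against 1.45 for the other probes. The ratio was over 1 for 86 members, against 92.3% of the other probes.

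The largest ratio of spread between groups to spread within groups belonged to CUST_20169_PI427420766_b (contig11107), with an SD of group means of 0.154 and a pooled SD within groups of 0.141. Its group means ran from 0.21 under its own mean with Cu-NWires EC20 at 3 days to 0.24 over it with Cu-NPs EC50 at 3 days. The smallest ratio belonged to CUST_21237_PI427420766_b (contig10113), with an SD of group means of 0.0844 and a pooled SD within groups of 0.195. The spread between groups exceeded that within groups in 4 members, against 22.4% of the other probes.

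**Figure D3:**
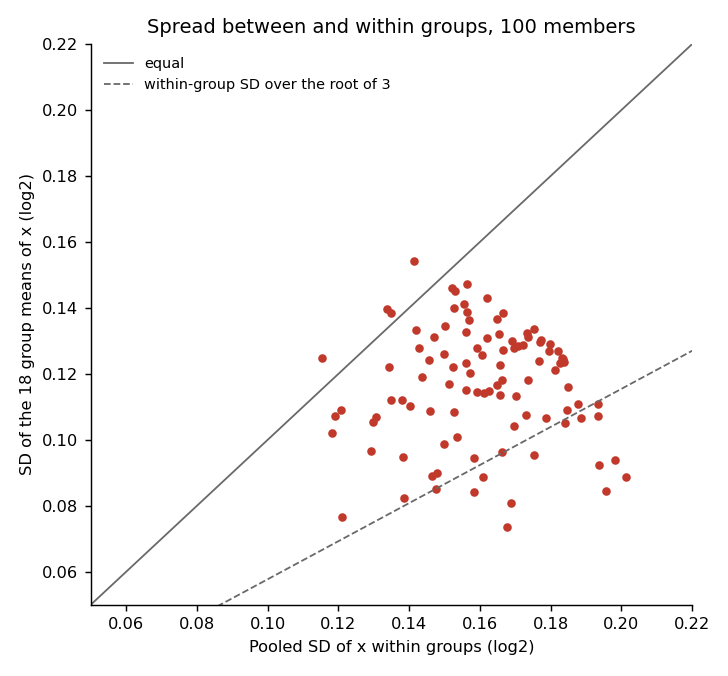
SD of the 18 group means of x against the pooled SD of x within groups (both log2) for the 100 members; the solid line marks equal values and the dashed line the within-group SD divided by the root of 3. Of the members, 86 lie above the dashed line and 4 above the solid line.

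The scanner software gives an error for a single spot. This error was 0.138 on the log2 scale for the median member, and 12 members had a pooled SD within groups under their own error, against 1 of the other probes. Replicate spots of the E1A spike-ins, which are control transcripts added in known amounts, gave a second measure. Each spike-in probe had 32 spots on an array, and the median SD of log2 signal among them was 0.0565 to 0.102, over the 7 of 10 probes that were neither dim nor saturated on any array. Both are errors of spots on 1 array, while the spread within groups is between arrays and worm pools and was kept small by the rule, so that they are not measures of one kind.

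Single arrays set the extremes of many members. The lowest array was replicate 3 of Cu-NPs EC50 at 3 days for 15 members and replicate 1 of the control at 3 days for 13 members. The highest array was replicate 3 of Cu-NPs EC20 at 7 days for 10 members and replicate 3 of CuNO3 EC20 at 7 days for another 10. The share of members within 0.25 of their own mean was 62% to 96% per array, with a median of 87%. The array with 62% was replicate 3 of Cu-NPs EC50 at 3 days. The SD over members of their deviations was 0.117 to 0.244 per array, against 0.351 to 0.863 for the other probes on the same arrays.

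By group means, the members were lowest most often in the control at 3 days (15 members), with Cu-Field EC50 at 3 days (14 members) and with Cu-NPs EC50 at 3 days (13 members). They were highest most often with Cu-NPs EC20 at 3 days (14 members) and with Cu-NWires EC50 at 7 days (13 members). No single group held the extreme of most members.

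The largest deviation of a group mean was that of CUST_2068_PI427420766_b (contig26640) with Cu-NWires EC20 at 7 days, 0.36 under the mean of the probe. In this group x was 5.01, 5.09 and 5.07 with Cu-NWires EC20, against 5.39, 5.57 and 5.83 in the control at 7 days. These arrays did not overlap, in a probe and a group named for the largest deviation. The next largest was that of CUST_29789_PI427420766_b (GYUW2K401ECFLT) with Cu-NPs EC50 at 3 days, 0.34 under the mean of the probe.

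The 16 treated groups were set against the same-day control. Over the 1600 differences of the 100 members, the median absolute difference of group means was 0.11 on the log2 scale, and the largest was 0.54, which is 1.45-fold. A difference over 1.2-fold occurred 161 times, in 74 members, and one over 1.5-fold occurred 0 times. Among the other probes, 23.0% of the differences were over 1.5-fold. The rule used these values, so that nothing is read from the contrast. The members differed least from the control with Cu-NPs EC20 at 7 days (median absolute difference 0.0847) and most with Cu-NWires EC20 at 3 days (0.172). Between the controls at 7 days and 3 days the same measure was 0.167.

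A limma model with one mean per group over all 54 arrays was fitted on the 19499 probes flagged positive and significant on every array, with Benjamini-Hochberg adjustment in each comparison and a threshold of 0.05. On the scale of the array median, 6 of the 1600 member tests passed, while 3.07% of all tests passed. In the comparison of the controls at 7 days and 3 days, 0 members passed, while 3.42% of all probes did, and 3 members had an unadjusted p under 0.05, beside 20.5% of all probes. The rule used this scale, and nothing is read from these counts.

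The 6 calls fell on 5 members and in 2 comparisons at 3 days, 4 of them with Cu-NPs EC50, beside 16.9% of all probes, and 2 with Cu-NWires EC50, beside 11% of all probes. Their values are given as a description, with no test. CUST_29789_PI427420766_b had x of 3.53, 3.66 and 3.45 with Cu-NPs EC50, against 4.15, 4.08 and 4.02 in the control, a log2 difference of -0.54. CUST_36146_PI427420766_b (GYUW2K402HKAC9) had x of 5.03, 4.92 and 4.79 with Cu-NPs EC50 and of 5.003, 4.913 and 4.930 with Cu-NWires EC50, against 5.49, 5.37 and 5.41 in the control. The arrays of both probes did not overlap between the treated groups and the control, which follows in part from naming the called probes.

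CUST_67477_PI427420766_b, the brightest member, had x of 6.46, 6.62 and 6.35 with Cu-NPs EC50, against 6.97, 6.83 and 7.06 in the control. CUST_19765_PI427420766_b (contig11486) had x of 3.00, 3.31 and 3.23 with Cu-NPs EC50, against 2.55, 2.73 and 2.81 in the control. CUST_20855_PI427420766_b (contig10465) had x of -1.12, -1.08 and -0.84 with Cu-NWires EC50, against -0.41, -0.67 and -0.39 in the control. Both comparisons share the control at 3 days, and without its replicate 1, or with the slide as a block in the fit, 0 of the 1600 member tests passed.

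The study compares several normalizations, among them Median and Quantile normalization. Those it proposes include standard-vector condition-decomposition (SVCD). SVCD aligns the replicates of each group over all probes and then the groups over those probes that show no variation between them. It was computed here on the copper arrays alone. On this scale the median SD of the members was 0.405, against 0.551 for the other probes, and the lowest SD of a member was 0.307, above the lowest SD of 0.197 among the other probes. Of the 100 probes with the lowest SD on the SVCD scale, 0 were members. SVCD found 1758 probes without variation between groups, which included 0 members and 4.79% of the other probes well above background. These values depended on where the iteration began. When SVCD was started from the array medians, the median SD of the members was 0.232 and 41 members were among the 100 probes with the lowest SD. From that start 2282 probes showed no variation, which included 2 members and 10.5% of the other probes.

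Both scales differ by 1 offset per array, between -0.62 and 0.69 on the log2 scale, so that all members shift together. On the SVCD scale the median deviation of the members from their own means was -0.53 ± 0.10 with CuNO3 EC20 at 3 days, -0.63 ± 0.05 with CuNO3 EC50 at 3 days and -0.42 ± 0.08 with Cu-NPs EC50 at 3 days, against -0.53 ± 0.06 in the control at 3 days (SD, n = 3 each). It was 0.40 ± 0.03 with Cu-NWires EC20 at 3 days, 0.36 ± 0.08 with Cu-NWires EC50 at 3 days and 0.27 ± 0.04 with Cu-Field EC20 at 3 days (SD, n = 3 each). At 7 days it was 0.45 ± 0.05 with Cu-Field EC20 and 0.58 ± 0.02 with Cu-Field EC50, against -0.02 ± 0.11 in the control (SD, n = 3 each). SVCD aligns the 3 arrays of a group with each other. These SDs therefore do not measure how well the level of a group is fixed. On the scale of the array median, the median deviation of the members lay between -0.07 and 0.09 in every group. The members were chosen on this scale, and the other probes lay between -0.09 and 0.09 on it.

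**Figure D4:**
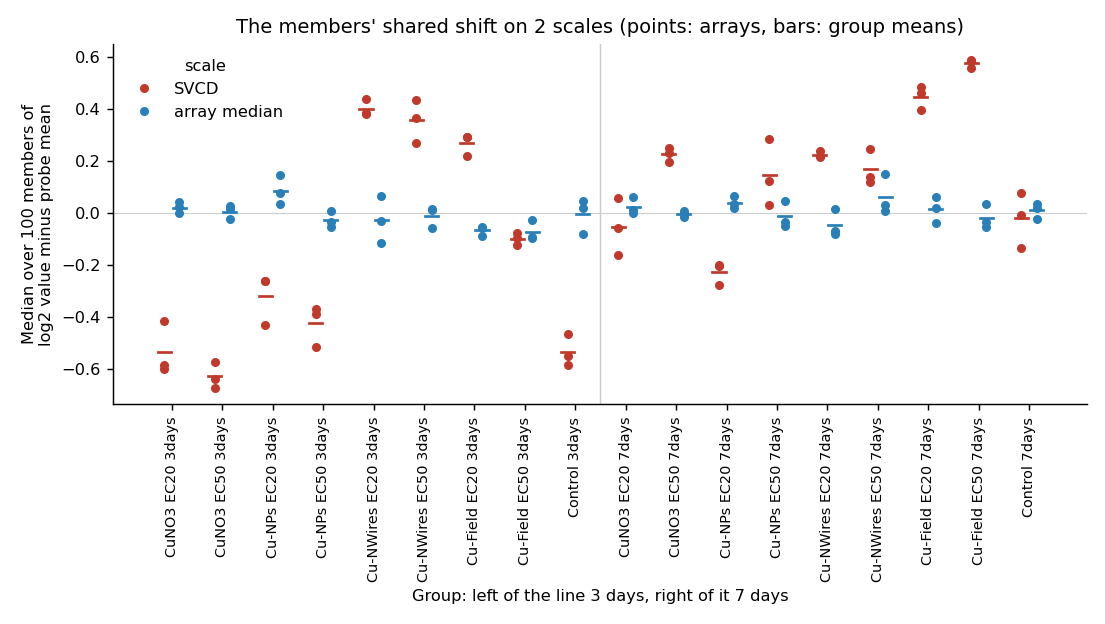
Median over the 100 members of the log2 value minus the mean of the probe, for each array (points) and group (bars, group means) on the SVCD scale (red) and the array median scale (blue), with 3-day groups left and 7-day groups right of the line. On the SVCD scale the groups range from -0.63 to 0.58, while on the array median scale all group means lie between -0.07 and 0.09. The members were chosen on the array median scale.

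The shift was shared with the other probes. In the same groups the median deviation of the other probes on the SVCD scale was 0.36 with Cu-NWires EC20 at 3 days and 0.50 with Cu-Field EC50 at 7 days, against -0.48 in the control at 3 days and -0.01 in the control at 7 days. SVCD shifts all probes of an array by 1 value, so that a common shift of both sets follows from the scale. The order of groups was not the same throughout. The members had -0.32 with Cu-NPs EC20 and -0.42 with Cu-NPs EC50 at 3 days, and the other probes -0.34 and -0.31.

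On the SVCD scale, 433 of the 1600 member tests passed in the same limma model, while 11.2% of all tests passed. The count was 120 with SVCD started from the array medians, 19 with normexp background correction and 280 with only the 2 groups of a comparison in the fit. With all groups in the fit, every member passed in at least 2 of the 16 comparisons and at most in 6. In all comparisons named below, the called members were higher in the treated group. The rule kept the spread of the members within groups small, so a shift shared by all probes can pass more easily in members. The counts of called members beside those of all probes, here and below, are therefore descriptions, and nothing is read from the contrast.

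With Cu-NWires EC20 at 3 days, 100 members were called, beside 44.6% of all probes, with a median log2 difference of 0.93 over the members and of 0.75 over all probes. With Cu-NWires EC50 at 3 days, 99 members were called, beside 42.9% of all probes, with a median log2 difference of 0.91. With Cu-Field EC20 at 3 days, 99 members were called, beside 41.7% of all probes, with a median log2 difference of 0.83. The most stable probe, CUST_17179_PI427420766_b, had a log2 difference of 1.13 with Cu-NWires EC20 at 3 days on this scale. The rule chose this probe for its small spread, so the difference is a description and is given without a test.

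With Cu-Field EC50 at 3 days, 39 members were called, beside 12.6% of all probes. With Cu-Field EC50 at 7 days, 84 members were called, beside 15.8% of all probes, with a median log2 difference of 0.59. This difference moved between -0.05 and 0.79 when 1 array was left out, so its sign was not fixed. With Cu-Field EC20 at 7 days, 4 members were called, beside 0.436% of all probes, and with Cu-NPs EC50 at 3 days 8 members, beside 20.5% of all probes. With both levels of CuNO3 at both days, Cu-NPs EC20 at both days, Cu-NPs EC50 at 7 days and both levels of Cu-NWires at 7 days, 0 members were called, and 0% to 0.241% of all probes. In these 9 comparisons, 0 to 29 members had an unadjusted p under 0.05, beside 5.48% to 12% of all probes.

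The control at 7 days was higher than the control at 3 days on the SVCD scale in 60 called members, beside 20.5% of all probes, with a median log2 difference of 0.52 over the members. This count was 0 with only the 2 controls in the fit, 12 with the methods' t-test, 14 with SVCD started from the array medians and 1 with normexp.

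The counts on the SVCD scale depended on which arrays were in the fit. When replicate 3 among the 7-day control arrays was left out, 163 of the 1600 member tests passed, 1 member was called with Cu-Field EC20 at 3 days and 0 with Cu-Field EC50 at 7 days. When the Cu-NWires EC20 array of replicate 1 at 3 days was left out, 182 passed and 0 members were called with Cu-Field EC50 at either day. The count between the controls was 7 without replicate 2 of the control at 7 days. Leaving out 1 array moved the count with Cu-Field EC20 at 7 days between 0 and 82. The count moved between 1 and 48 with Cu-NPs EC50 at 3 days, and between 34 and 100 with Cu-NWires EC20 at 3 days. The members' median log2 difference moved between -0.07 and 0.66 with Cu-Field EC20 at 7 days. Without the 7-day control's replicate 3 or the 3-day Cu-NWires EC20 replicate 1, its sign turned with both Cu-Field levels at 7 days. With Cu-NPs EC50 at 3 days it moved between -0.04 and 0.40. At 3 days it was 0.34 to 1.09 with Cu-NWires EC20 and 0.61 to 1.06 with Cu-NWires EC50. With Cu-Field at 3 days it was 0.24 to 0.996 at EC20 and 0.03 to 0.60 at EC50.

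**Figure D5:**
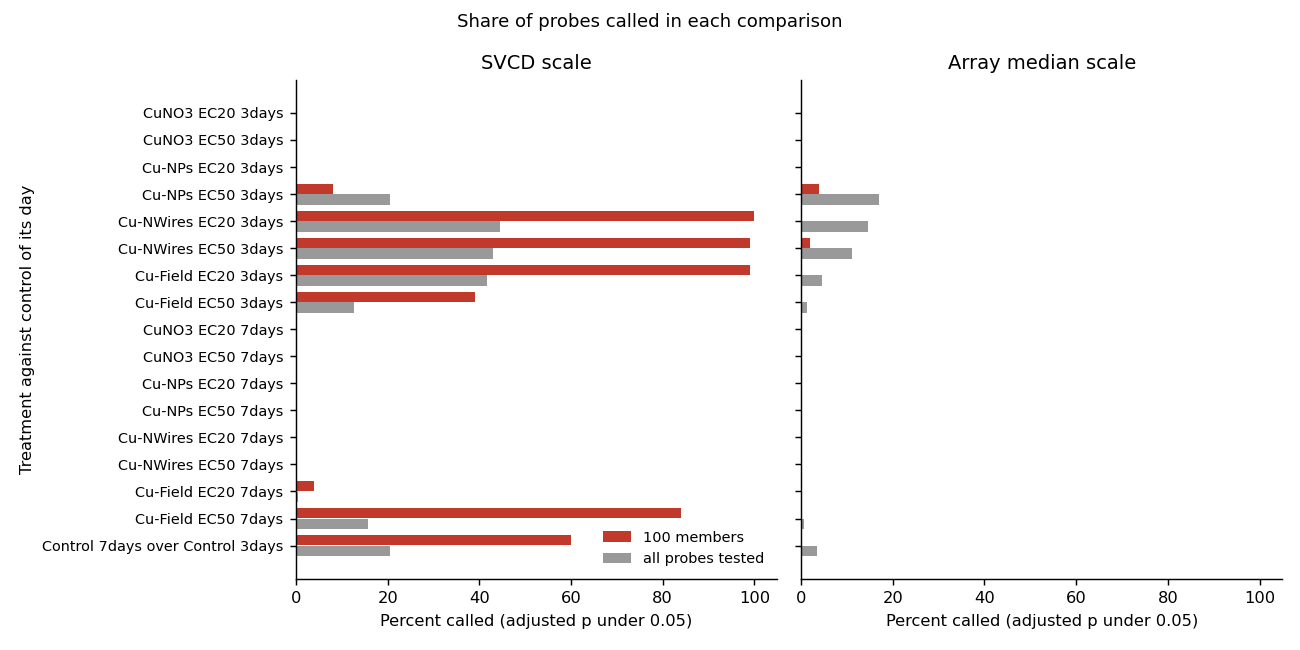
Percent of the 100 members (red) and of all 19499 probes tested (grey) with a limma adjusted p under 0.05 in each comparison, on the SVCD scale (left) and the array median scale (right). On the SVCD scale the members reach 99 to 100 percent with Cu-NWires at 3 days and Cu-Field EC20 at 3 days, while on the array median scale they reach at most 4 percent. The rule kept the spread of the members small, so nothing is read from the contrast of members with all probes.

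The spike-ins gave another scale. Scaled to the mean of the 7 E1A probes, the median SD of the members was 0.853, against 0.905 for the other probes, and without any scaling it was 0.467, against 0.601. The SD between arrays of a spike-in probe was 0.781 to 0.927 on the scale of the array median. All probes well above background had a median SD of 0.463 on this scale. The SDs of the members, at most 0.195, were kept small there by the rule and are not set against those of the spike-ins.

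The day was used to see how far the list depends on the arrays that choose it. The 100 probes with the lowest SD over the 3-day arrays had a median SD of 0.161 there and of 0.202 on the 7-day arrays, which had no part in ranking them, against 0.441 for all probes well above background. Of these probes, 90 lay among the lowest 10% of SDs on the 7-day arrays, and 64 were members. The 100 probes chosen over the 7-day arrays had a median SD of 0.160 there and of 0.219 on the 3-day arrays, against 0.450 for all probes, and 81 of them lay among the lowest 10%. The candidates had to be well above background on the arrays of both days, so the other day had a part in choosing them. Each array was scaled by its own median over the same probes. The comparison with all probes was not matched for brightness, and the SD of all probes fell with level.

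The members were also compared with each other over the 54 arrays. Among the 4950 pairs the median Pearson r of x was 0.095, with a range of -0.58 to 0.93, and 37 pairs had an r over 0.7. The first principal component held 16.4% of the variance of the members and the second 12.7%. These values are descriptions over arrays that share slides, scaling and groups. The absolute r was under 0.3 in 73.7% of the pairs, with a median of 0.185.

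The pairs over 0.7 linked 36 members into 11 sets. The closest pair was CUST_56545_PI427420766_b (GYUW2K401C5URF) and CUST_38788_PI427420766_b (GYUW2K401DZYCV), with an r of 0.93 over all arrays and 0.93 after the group means were subtracted. Their mean x was nearly the same, 3.74 and 3.75, although their spots lay 83 rows and 41 columns apart. CUST_43092_PI427420766_b (GYUW2K402GDHGG) and CUST_57365_PI427420766_b (GYUW2K402G423K) formed a second such pair, with an r of 0.86 and a mean x of 3.32 each. Both pairs are of single reads, and whether the reads of a pair come from 1 transcript was not tested.

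The largest set had 8 members with r between 0.53 and 0.87, all bright, with mean x from 3.88 to 6.61. It included CUST_2068_PI427420766_b, CUST_26052_PI427420766_b, CUST_51503_PI427420766_b and CUST_7873_PI427420766_b, and 6 of the 8 had their lowest group mean with Cu-NWires EC20 at 7 days. A set of 5 members held CUST_86156_PI427420766_b, CUST_7992_PI427420766_b and CUST_20169_PI427420766_b, with mean x from 6.09 to 6.60. A set of 3, CUST_88157_PI427420766_b, CUST_31599_PI427420766_b and CUST_22494_PI427420766_b, had its lowest group mean with Cu-NPs EC50 at 7 days and its highest with CuNO3 EC20 at 7 days in all 3 probes. The sets were formed by r over the same arrays, so that shared lowest and highest groups follow in part from that choice. After the group means were subtracted, the r of the 37 pairs was 0.61 to 0.93, so that the pairs also varied together within groups.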

How the data were processed

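Signals of 54 single-dye Agilent arrays were analysed. Per the file headers, the deposited values are intensity values on a linear scale from Agilent Feature Extraction 10.7.3.1, background-subtracted and not normalized between arrays. The authors' value table holds these intensity values after rounding, at 0.995 to 1.005 of the scanner value. There were 0 columns of other series. Groups followed the sample labels. Log2 values, scaling and the rule were computed in Python 3.11.15, and SVCD was written anew from the methods, with 1% of variances trimmed and a Kolmogorov-Smirnov level of 0.001. Tests used limma 3.58.1 in R 4.3.3 and were tested on simulated data. For normexp (offset 50) the median spot signal took the place of the mean spot signal. The members and lists were chosen with earlier results of these data known. Named probes were the 10 lowest SDs, the 3 on each side of the limit, the extremes of level, group deviation and ratio of spreads, and members sharing a target (none did); called probes and correlated sets were named, and the 1.2-fold limit and the lists by day chosen, after values were seen. Replicate numbers did not pair the arrays. Per the study's methods, each replicate was the worms of 1 soil vessel, hybridized on 1 array. The number of arrays limits the precision.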

Additional observations from a re-analysis of the deposited data

Results flagged for a closer look

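On the SVCD scale, the median over the members of the difference from the control of the day had opposite signs at 3 and 7 days in every array of 2 treatments. With CuNO3 EC50 the mean over the 3 arrays was -0.11 at 3 days and 0.23 at 7 days. With Cu-NPs EC20 it was 0.22 at 3 days and -0.20 at 7 days. All probes tested had the same signs, with median log2 differences of -0.08 and 0.20 with CuNO3 EC50 and of 0.10 and -0.21 with Cu-NPs EC20, at 3 and 7 days in turn. SVCD shifts all probes of an array by 1 value. In these 4 comparisons 0 members were called, beside 0% to 0.0872% of all probes. Leaving out 1 array moved the members' median limma difference between -0.17 and 0.08 with CuNO3 EC50 at 3 days, between -0.17 and 0.44 with it at 7 days, between 0.01 and 0.46 with Cu-NPs EC20 at 3 days, and between -0.31 and 0.01 with it at 7 days. The sign with CuNO3 EC50 turned at both days when the 7-day control lost its replicate 3 or the 3-day Cu-NWires EC20 group its replicate 1, and at 3 days also when the 3-day control lost its replicate 2. The sign with Cu-NPs EC20 at 7 days turned without its own replicate 3. The difference between the days was not tested. On the array median scale neither treatment had this pattern.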

How the results depend on the processing

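The list depended on the scaling. Of the 100 members, 64 stayed with the 75th percentile, 40 with Quantile, 41 with SVCD started from Median offsets, 14 with normexp, and 0 with SVCD, with the E1A spike-ins or with no scaling. By other measures, 55 stayed with the median absolute deviation, 63 with the SD of group means, 52 after slide means were subtracted, 64 and 49 on the 3-day and 7-day arrays alone, and 61 on either scan day alone. Leaving out 1 array kept 89 to 99. The median SD of 0.180 became 0.195 with Quantile, 0.405 with SVCD, 0.232 with SVCD started from Median offsets, 0.853 with the E1A spike-ins, 0.467 with no scaling, 0.235 with normexp, 0.154 after slide means were subtracted, and 0.169 on the 3-day arrays or the first scan day alone. It was 0.177 to 0.181 without 1 array.

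The 6 member calls on the median scale became 0 with slide as a block, 0 with only the 2 groups in the fit, 2 with the methods' t-test, 3 with the median of all positive and significant probes, 206 with the E1A spike-ins, 145 with no scaling, 11 with Quantile and 0 with normexp, and 0 to 12 without 1 array, with 0 and 3 without replicates 1 and 3 of the control at 3 days, and 12, 2 and 2 without each Cu-NPs EC50 array at 3 days. The 433 calls on the SVCD scale became 280 with only the 2 groups in the fit, 120 with SVCD started from Median offsets and 19 with normexp, and 163 to 528 without 1 array. The 60 calls between the controls became 0 with only the 2 groups in the fit, 12 with the methods' t-test, 14 with SVCD started from Median offsets and 1 with normexp, and 7 to 76 without 1 array (37 and 39 when replicate 1 at 3 days was left out of the control or of Cu-NWires EC20, and 30, 7 and 32 when each control array at 7 days was). The share of all probes that passed is not given for these settings, so a changed count is not a result about the members alone. The cause was not tested. With the replicate block, the calls were 5, 426 and 60. The median correlation of deviations was -0.03 between arrays of the same number, and the numbers did not pair the arrays. Leaving out flagged outlier spots and using the deposited value table were chosen after seeing the data, with 7 calls on the median scale and 100 members kept. Probes not well above background on every array were outside the list, whatever their spread.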
